A study of Mus musculus with 7 samples.

Results

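The genes described here are those named for proteins of the mitochondrial ribosome. They were taken as all probe sets that the array's annotation assigns to exactly 1 gene whose symbol starts with Mrpl (large subunit) or Mrps (small subunit) followed by a digit. This rule found 127 of the 22626 probe sets on the array, for 74 of 12393 genes: 47 of the large subunit and 27 of the small subunit. Each gene was read on its probe set with the highest mean signal in wild-type hearts, a choice that does not use the KLF15-null arrays. All 74 genes had such a probe set above the filter on dim signals, and 111 of the 127 probe sets passed it. The hearts came from male C57/BL6 mice aged 3 to 4 months after an 18 h fast, either wild type (WT, 4 Affymetrix arrays) or lacking the transcription factor KLF15 (KLF15-null, 3 arrays). All animals of both groups were fasted, so no value here compares fasted with fed hearts. The labels used here do not say which part of Klf15 was deleted, nor whether each array is 1 animal, so p-values measure only the spread between these arrays.

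Mitochondria keep a small genome of their own, and the proteins it encodes are core subunits of the respiratory chain and the ATP synthase. They are made on a separate ribosome whose RNAs come from mitochondrial DNA, while all of its proteins are encoded in the nucleus, made in the cytosol and imported. Some of these proteins have counterparts in bacterial ribosomes and others are particular to mitochondria, and inherited defects in several of them, MRPL3 and MRPL44 among them, cause cardiomyopathy. KLF15 is a zinc-finger factor of the Krüppel-like family that is abundant in heart, liver and skeletal muscle and is known for its part in fuel metabolism during fasting.

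Signals are log2 values, so a difference of 1 is a doubling, and every difference is the KLF15-null mean minus the WT mean. The Klf15 probe set read 8.68 to 9.08 in WT and 6.23 to 6.52 in KLF15-null hearts, a difference of -2.54 (limma with Benjamini-Hochberg adjustment, adjusted p = 1.26e-06). Across all probe sets the arrays correlated at 0.995 to 0.997 within WT, 0.986 to 0.993 within KLF15-null and 0.942 to 0.964 between the groups. The sex on the labels was not borne out: the brightest Xist probe set, a transcript of female cells, read 9.82 to 9.94 in WT and 8.57 to 9.62 in KLF15-null hearts, while the 3 Y-linked genes checked (Eif2s3y, Kdm5d and Uty) read no higher than the 27.3th percentile of all probe sets. Sex therefore rests on labels that these probe sets go against, in both groups.

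At an adjusted p under 0.05, 20 of the 74 genes were called higher in KLF15-null hearts, 10 were called lower and 44 were not called. Among all 8400 genes tested in the same way, 25.3% were higher and 21.2% lower. The members' share of higher genes, 27.03%, is close to that background, and their share of lower genes, 13.5%, is below it. Their median difference was 0.08, against 0.01 over all genes tested. Under quantile normalization the split turned to 14 higher and 23 lower members, beside 25.6% and 23.7% of all genes, as set out with the array scalings further on. The members thus did not all move one way: single genes of both subunits went up or down by about 2-fold beside others whose groups overlapped. In a whole heart, fewer cells of a type and less RNA per cell cannot be told apart. Counted without a test, 21 members had all 3 KLF15-null values above all 4 WT values and 13 had all 3 below, where 26.2% and 23.1% of all genes did.

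In the large subunit, 12 of 47 genes were higher, 8 were lower and 27 were not called, with a median difference of 0.05. The differences ran from -1.03 for Mrpl50 to 1.07 for Mrpl33. Past 1.5-fold, 5 genes were higher (Mrpl33, Mrpl51, Mrpl44, Mrpl3 and Mrpl52) and 5 lower (Mrpl50, Mrpl14, Mrpl42, Mrpl38 and Mrpl40). Among all 8400 genes tested, 1200 were called higher and 966 lower past the same limit. These counts depend on how the arrays are scaled against each other: 18 genes, not 8, were lower after quantile or cyclic loess normalization, and the median turned to -0.04 and -0.05.

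**Figure D1:**
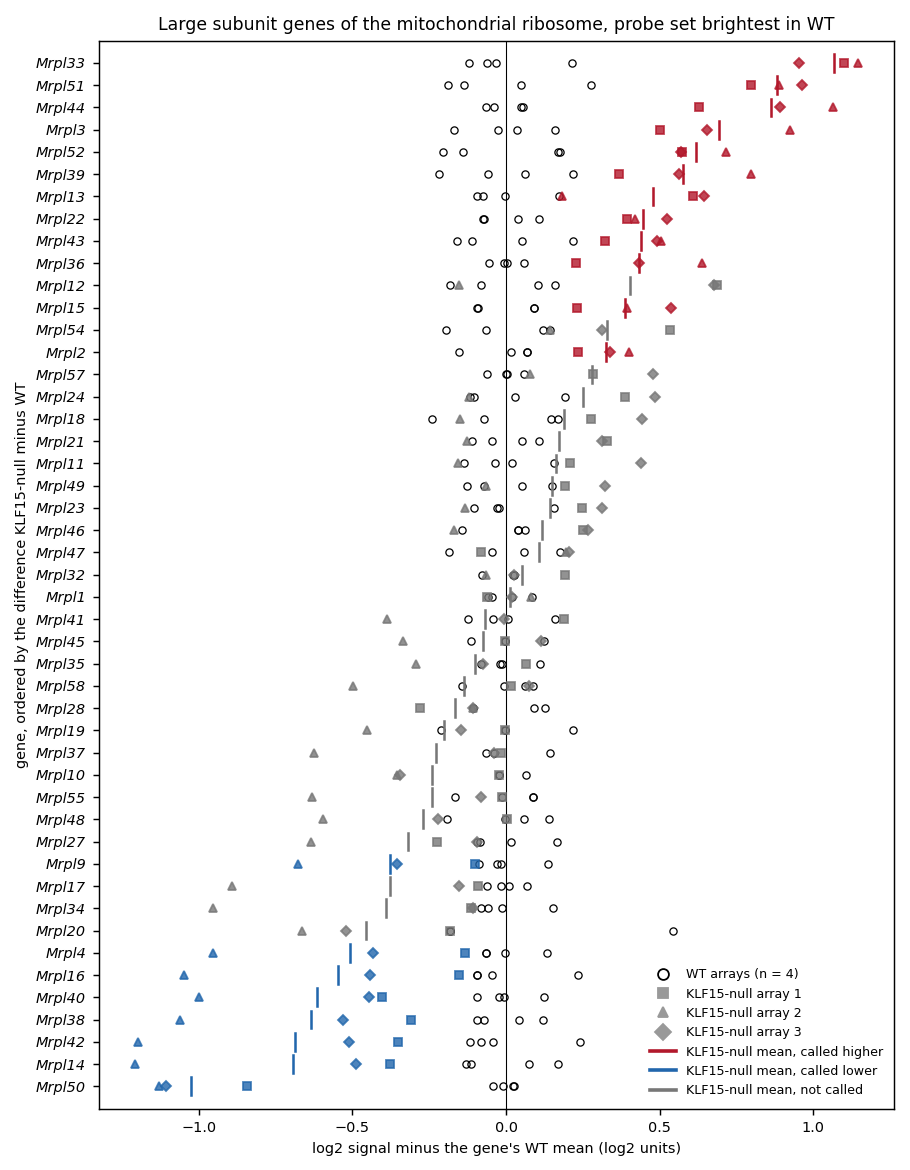
Signal of the 47 large subunit genes on each array, as log2 signal minus the gene's WT mean (x axis, log2 units), 1 gene per row ordered by its difference. Open circles are the 4 WT arrays, filled squares, triangles and diamonds are KLF15-null arrays 1, 2 and 3, and bars are KLF15-null means, red where called higher, blue where called lower and grey where not called, on the deposited scale; quantile or cyclic loess normalization gives 18 lower genes in place of 8. Mrpl33 stands at the top and Mrpl50 at the bottom, and in the lower genes the triangle of array 2 lies farthest from WT.

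Mrpl33, the counterpart of a small bacterial large-subunit protein, rose the most. It read 9.29, 9.38, 9.62 and 9.35 on the WT arrays and 10.51, 10.56 and 10.36 on the KLF15-null arrays. The groups lay well apart, by more than the spread within either, and the difference of 1.07 (SE 0.12) was a 2.09-fold rise (limma, adjusted p = 6.83e-05). The 120 bases before its start are shown because they carry 1 of the promoter sequences counted further on. They lie on the plus strand at chr5:31613831-31613950 (GRCm38.p6, RefSeq), and the capitals mark the core that nuclear respiratory factor 1 (NRF-1) binds, GCANGCGC, read here on the opposite strand.
Mrpl33: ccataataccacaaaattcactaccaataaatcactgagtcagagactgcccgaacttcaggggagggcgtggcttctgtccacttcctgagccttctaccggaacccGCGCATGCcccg

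Mrpl51 and Mrpl44, both particular to mitochondria, followed. Mrpl51 read 10.98, 11.22, 11.45 and 11.04 in WT and 11.97, 12.06 and 12.14 in KLF15-null hearts, 1.84-fold higher (difference 0.88, SE 0.13, limma adjusted p = 0.00038). Mrpl44 carries a fold related to ribonuclease III. Its values were 10.19, 10.06, 10.18 and 10.09 in WT against 10.76, 11.19 and 11.02 in KLF15-null hearts, 1.82-fold higher (difference 0.86, SE 0.12, limma adjusted p = 0.000319). In both genes every KLF15-null array was above every WT array.

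Mrpl3, whose bacterial counterpart reaches towards the site of peptide bond formation, read 9.47, 9.53, 9.65 and 9.33 in WT and 9.996, 10.42 and 10.15 in KLF15-null hearts, a 1.62-fold rise (difference 0.69, SE 0.13, limma adjusted p = 0.00184). Mrpl52, particular to mitochondria, rose 1.54-fold, from 10.54 ± 0.20 (SD, n = 4) to 11.16 ± 0.08 (n = 3; limma adjusted p = 0.00301). Mrpl39 went from 11.80 ± 0.19 to 12.38 ± 0.21, a difference of 0.58 (limma adjusted p = 0.00689). Each of these 3 genes also had groups that did not overlap. After quantile normalization Mrpl52 and Mrpl39 lost their calls, with adjusted p = 0.116 and 0.291, and their differences shrank to 0.23 and 0.16.

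Smaller rises were found for Mrpl13, Mrpl22, Mrpl43, Mrpl36, Mrpl15 and Mrpl2, with differences between 0.32 and 0.48. Mrpl22, whose bacterial counterpart lines the tunnel through which the new protein leaves, was the tightest of them. It read 9.37, 9.48, 9.55 and 9.37 in WT and 9.84, 9.86 and 9.97 in KLF15-null hearts (difference 0.45, SE 0.10, limma adjusted p = 0.00525). Mrpl13, Mrpl15 and Mrpl2 depended on single arrays and lost their calls after quantile or cyclic loess normalization. Mrpl13 lost its call without any 1 of WT arrays 2 and 4 and KLF15-null arrays 1 and 3, with adjusted p from 0.0501 to 0.0776. Mrpl15 lost it without WT array 1 or 4 or KLF15-null array 3, with adjusted p from 0.057 to 0.0858. Mrpl2 lost it without WT array 1, 2 or 4 or KLF15-null array 3, with adjusted p from 0.0576 to 0.0798.

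Mrpl50, particular to mitochondria, fell the most of the large subunit and had the least spread among the lower genes. Its WT values were 8.54, 8.57, 8.58 and 8.51, and its KLF15-null values were 7.71, 7.42 and 7.44. No value of one group came near the other, and the 2.04-fold fall (difference -1.03, SE 0.10) had a limma adjusted p = 3.63e-05. Its start lies head to head with that of Zfp189, a zinc-finger gene, 93 bases away. The stretch between the 2 starts, on the minus strand at chr4:49521084-49521175 (GRCm38.p6, RefSeq), is shown because both genes share it; it holds none of the 5 motifs searched, so no base is in capitals. Zfp189 read below the filter level and was not tested.
Mrpl50: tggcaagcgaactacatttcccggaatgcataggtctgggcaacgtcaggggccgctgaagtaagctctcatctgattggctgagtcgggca

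Mrpl14, Mrpl42, Mrpl38 and Mrpl40 fell by between 0.62 and 0.69. Mrpl14, whose bacterial counterpart lies on the face towards the small subunit, read 9.24, 9.45, 9.54 and 9.26 in WT and 8.99, 8.16 and 8.88 in KLF15-null hearts (difference -0.69, SE 0.19, limma adjusted p = 0.0139). Mrpl42 had the brightest WT signal of the subunit, though brightness also depends on the probes and is no measure of its RNA against that of other genes. It read 11.86, 11.94, 12.23 and 11.90 in WT and 11.63, 10.78 and 11.47 in KLF15-null hearts (difference -0.69, SE 0.19, limma adjusted p = 0.0149). In both genes KLF15-null array 1 lay just below the lowest WT array and array 2 far below it.

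Mrpl38 and Mrpl40, both particular to mitochondria and placed in the central protuberance of the large subunit, showed the same order of arrays. Mrpl38 read 8.73, 8.59, 8.81 and 8.62 against 8.38, 7.63 and 8.16, a 1.55-fold fall (limma adjusted p = 0.0103). Mrpl40 read 8.41, 8.34, 8.56 and 8.43 against 8.03, 7.43 and 7.99, a 1.53-fold fall (limma adjusted p = 0.00682). All 4 of these genes kept their calls when any 1 array was left out. Without KLF15-null array 2, however, their differences shrank to between -0.42 and -0.43, against -0.62 to -0.69 with it.

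A further 3 large subunit genes (Mrpl16, Mrpl4 and Mrpl9) passed the threshold only narrowly, with differences of -0.55, -0.51 and -0.38 and limma adjusted p = 0.0419, 0.0378 and 0.0483. Mrpl16 read 10.12, 10.17, 10.44 and 10.12 in WT and 10.06, 9.16 and 9.77 in KLF15-null hearts. There, KLF15-null array 1 stood just under the lowest WT array and array 2 far under it. The calls of all 3 genes ended without any 1 of the 4 WT arrays or KLF15-null arrays 2 and 3. The adjusted p in those fits ran from 0.0682 to 0.103 for Mrpl16, from 0.0669 to 0.0896 for Mrpl4 and from 0.0744 to 0.115 for Mrpl9. The count of lower genes in the large subunit was accordingly 5 without any 1 of those 6 arrays, and 12 without KLF15-null array 1.

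Among the 27 genes not called, Mrpl34 (difference -0.39, adjusted p = 0.129), Mrpl17 (-0.38, adjusted p = 0.111) and Mrpl57 (0.28, adjusted p = 0.0723) still had groups that did not overlap. Mrpl12, part of the stalk that recruits translation factors, read 9.29, 9.48, 9.54 and 9.19 in WT and 10.06, 9.22 and 10.05 in KLF15-null hearts. There, arrays 1 and 3 were above every WT array while array 2 lay within their range, and the difference of 0.40 was not called (limma adjusted p = 0.13). Mrpl1, the dimmest of the subunit in WT at a mean of 6.75, differed by 0.01 (limma adjusted p = 0.909).

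In the small subunit, 8 of 27 genes were higher, 2 were lower and 17 were not called, with a median difference of 0.11. The differences ran from -1.01 for Mrps18a to 0.96 for Mrps9. Past 1.5-fold, Mrps9, Mrps26 and Mrps18b were higher and Mrps18a and Mrps11 lower, where 1200 and 966 of all 8400 genes tested were. Quantile normalization gave 6 higher and 5 lower genes and turned the median to -0.04, and cyclic loess gave 6 and 4 with a median of -0.01. Groups did not overlap in 8 genes upward and 3 downward, the third being Mrps31 (difference -0.27, limma adjusted p = 0.0804).

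**Figure D2:**
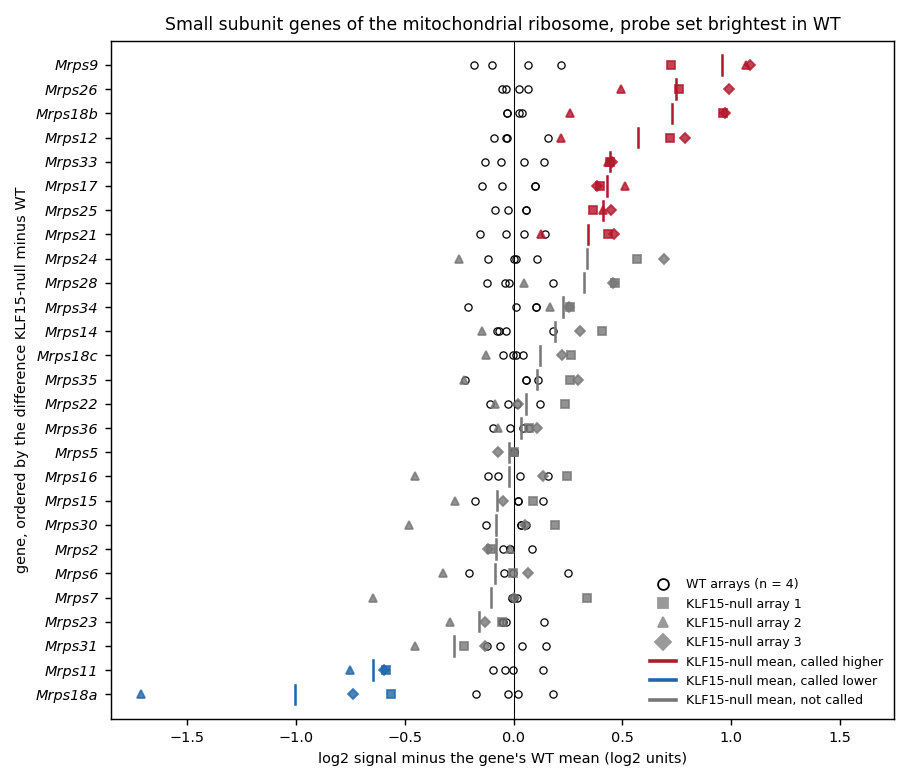
Signal of the 27 small subunit genes on each array, as log2 signal minus the gene's WT mean (x axis, log2 units), 1 gene per row ordered by its difference, with symbols and colours for arrays and calls on the deposited scale; quantile normalization gives 5 lower genes in place of 2. The 8 red genes lie to the right of the WT circles, with Mrps21 overlapping them, and Mrps18a and Mrps11 lie to the left.

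Mrps9, whose bacterial counterpart reaches into the decoding region, rose the most of this subunit. It read 8.31, 8.56, 8.71 and 8.39 in WT and 9.22, 9.56 and 9.58 in KLF15-null hearts. Every KLF15-null array was clear of every WT array, and the 1.94-fold rise (difference 0.96, SE 0.14) had a limma adjusted p = 0.000325. Mrps26, particular to mitochondria, read 8.12, 8.10, 8.22 and 8.18 against 8.92, 8.65 and 9.15, a 1.68-fold rise (SE 0.13, limma adjusted p = 0.000823).

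Mrps18b is 1 of 3 mammalian relatives of a single bacterial small-subunit protein, the others being Mrps18a and Mrps18c. It read 8.06, 8.06, 8.11 and 8.13 in WT and 9.05, 8.35 and 9.06 in KLF15-null hearts, a 1.66-fold rise (SE 0.17, limma adjusted p = 0.00515). Its paralog Mrps18a went the other way. Mrps18a read 9.22, 9.27, 9.43 and 9.07 in WT and 8.68, 7.54 and 8.51 in KLF15-null hearts, a 2.01-fold fall (difference -1.01, SE 0.24, limma adjusted p = 0.00672). The third, Mrps18c, differed by 0.12 and was not called. So the 3 relatives rose, fell and stayed uncalled, with KLF15-null array 2 the lowest array of its group in each.

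Despite its symbol, the Mrps18a protein sits in the large subunit in structures of mammalian mitochondrial ribosomes, as does that of Mrps30. Counting these by structure leaves 1 lower gene in the small subunit, Mrps11. The 120 bases before the start of Mrps18a, on the plus strand at chr17:46110884-46111003 (GRCm38.p6, RefSeq), are shown as the counterpart to those of Mrpl33. The capitals mark CCGGAAG, the core of sites for ETS factors such as GABPA. The wider window counted further on also holds the ETS core for Mrpl33, and the letters of the factor YY1 for Mrps18a.
Mrps18a: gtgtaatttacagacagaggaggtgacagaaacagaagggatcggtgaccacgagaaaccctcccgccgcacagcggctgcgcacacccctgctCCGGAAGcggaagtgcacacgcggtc

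Mrps12, whose bacterial counterpart helps the decoding site check each codon, read 8.83, 8.84, 9.02 and 8.77 in WT and 9.58, 9.08 and 9.65 in KLF15-null hearts (difference 0.57, SE 0.15, limma adjusted p = 0.00991). Its start lies head to head with that of Sars2, the mitochondrial seryl-tRNA synthetase, 147 bases away. Sars2 fell: it read 6.50, 6.58, 6.19 and 6.67 in WT and 5.27, 5.07 and 5.16 in KLF15-null hearts (difference -1.32, limma adjusted p = 1.93e-05), the last 3 being under the filter level of 5.74. So the pair of genes, both serving mitochondrial translation, went opposite ways, and no KLF15-null value of either gene overlapped its WT values. Mrps12 was read on its only probe set, which is of a kind (_s_at) that several genes may share. The stretch between the 2 starts lies on the minus strand at chr7:28741822-28741967 (GRCm38.p6, RefSeq), reads towards Mrps12 and holds none of the motifs searched; the wider window counted further on, which runs past the start of each gene, holds the ETS and YY1 letters for Mrps12.
Mrps12: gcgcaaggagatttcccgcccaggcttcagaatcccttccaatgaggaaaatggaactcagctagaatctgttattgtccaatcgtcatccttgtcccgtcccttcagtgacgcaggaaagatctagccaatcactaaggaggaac

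Mrps33, Mrps17 and Mrps25 rose by 0.41 to 0.44 with little spread. Mrps33 read 8.85, 8.95, 9.04 and 8.77 in WT and 9.35, 9.34 and 9.36 in KLF15-null hearts (limma adjusted p = 0.00576). Mrps25 read 7.79, 7.85, 7.93 and 7.93 against 8.24, 8.29 and 8.32 (limma adjusted p = 0.00398). In these 3 genes KLF15-null array 2 stood with arrays 1 and 3. The call of Mrps17 was lost after quantile and cyclic loess normalization, with adjusted p = 0.115 and 0.107. Mrps21, the brightest of the subunit in WT, was called at adjusted p = 0.0463 although its groups overlapped; the call ended without any 1 of WT arrays 1, 2 and 4 and KLF15-null arrays 1 and 3, with adjusted p from 0.0856 to 0.158, and under quantile and cyclic loess normalization.

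Mrps11, the dimmest of the subunit in WT, read 7.16, 7.07, 7.30 and 7.12 in WT and 6.58, 6.41 and 6.57 in KLF15-null hearts. Both groups were tight and well apart, and the 1.56-fold fall (difference -0.64, SE 0.09) had a limma adjusted p = 0.000271. Its bacterial counterpart lies near the path of the messenger RNA. Mrps11 starts 42 bases from Mrpl46, a large subunit gene that runs the other way and differed by 0.12 (limma adjusted p = 0.488), so these 2 members share 1 start region while only Mrps11 was called; the difference between their changes was not tested. The bases between the 2 starts, on the plus strand at chr7:78783090-78783130 (GRCm38.p6, RefSeq), are 73.2% G and C and hold none of the motifs searched, while the wider window of Mrps11 holds the YY1 letters.
Mrps11: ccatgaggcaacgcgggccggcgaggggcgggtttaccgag

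Single arrays stood at the end of their group in many members. KLF15-null array 2 was the lowest of its group in 55 of the 74 genes and WT array 3 the highest of its group in 54. No such count was made over all genes, so this order is not shown to be particular to the members. Among the 10 lower genes array 2 was the lowest in 10 and WT array 3 the highest in 10; among the 20 higher genes array 2 was the lowest in 6 and the highest in 9, and array 1 the lowest in 11. The median over the large subunit genes was 9.29, 9.38, 9.48 and 9.23 on the WT arrays and 9.57, 9.15 and 9.37 on the KLF15-null arrays, so arrays of both groups interleaved. For the small subunit it was 8.85, 8.95, 9.04 and 8.77 in WT and 9.22, 8.91 and 9.25 in KLF15-null hearts. The members also spread more in KLF15-null hearts than in WT: the median SD was 0.24 for the large and 0.20 for the small subunit, against 0.12 and 0.11 in WT, and 0.17 and 0.11 over all genes tested.

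Leaving out KLF15-null array 2 alone changed the members' split from 20 higher and 10 lower to 30 and 7, while all probe sets tested went from 26.8% higher and 23.8% lower to 29.0% and 23.2%. Leaving out both it and WT array 3, a choice made after seeing the data, gave 33 higher and 7 lower members, beside 29.6% and 22.2% of all probe sets. Leaving out KLF15-null array 1 gave 18 and 14, beside 24.9% and 25.3%. No member called in the main fit was called in the opposite direction in any of these fits. Whether the 2 arrays differ for a technical reason was not tested.

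The 4 ways of scaling the arrays gave different splits of the same genes. On the deposited scale 20 were higher and 10 lower. Centring each array on its median gave 24 (32.4%) and 7 (9.46%), beside 31.9% and 16.1% of all genes. Quantile normalization gave 14 (18.9%) and 23 (31.1%), beside 25.6% and 23.7%. Cyclic loess normalization gave 15 (20.3%) and 22 (29.7%), beside 24.4% and 25%. The members' share of lower genes thus lay below that of all genes on the first 2 scales and above it on the other 2. The upper end of the signals differed between the groups on the deposited scale. The 98th percentile lay at 11.43 to 11.74 on the WT and 11.86 to 12.02 on the KLF15-null arrays. The array medians differed less and the other way, at 6.31 to 6.33 on the WT and 6.22 to 6.23 on the KLF15-null arrays. Of the 30 calls, 20 held in the main fit and in all 7 others that changed the filter, the scaling, the intensity trend or the array weights. Upward these were Mrpl3, Mrpl22, Mrpl33, Mrpl36, Mrpl43, Mrpl44 and Mrpl51 and, in the small subunit, Mrps9, Mrps12, Mrps18b, Mrps25, Mrps26 and Mrps33. Downward they were Mrpl14, Mrpl38, Mrpl40, Mrpl42, Mrpl50, Mrps11 and Mrps18a.

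**Figure D3:**
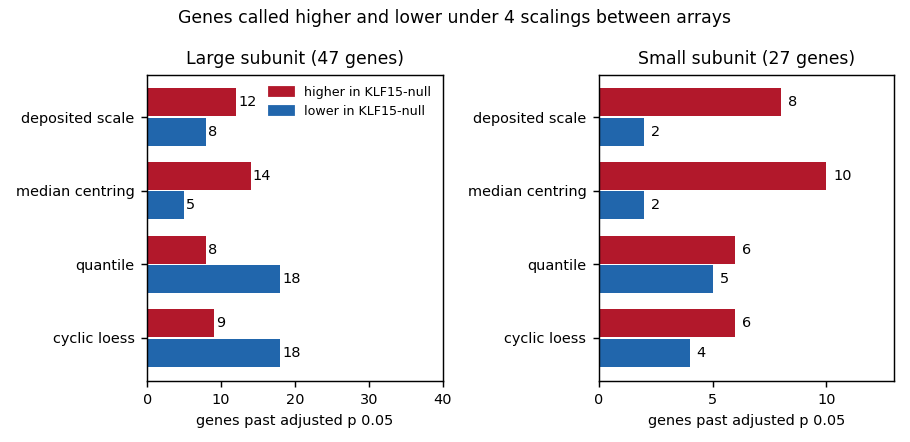
Number of genes called higher (red) and lower (blue) in KLF15-null hearts at an adjusted p under 0.05 (x axis, genes), for 4 ways of scaling the arrays, in the large subunit (left, 47 genes) and the small subunit (right, 27 genes). The blue bars of the large subunit stand at 8 on the deposited scale, at 5 with median centring, and at 18 with either quantile or cyclic loess scaling.

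Most members are bright, and the direction of bright genes turned with the scaling. Of the 2520 genes in the brightest 30% by WT mean (8.55 or more), 32.2% were higher and 24.5% lower, with a median difference of 0.05. The 55 members in that range had 15 higher genes (27.3%) and 7 lower genes (12.7%), with a median of 0.11. After quantile normalization the shares were 22.9% higher and 40.6% lower for all bright genes and 14.5% and 36.4% for the bright members, and after cyclic loess normalization 23.1% and 40.8% against 16.4% and 34.5%. Across the 74 members the difference followed the WT mean weakly (Pearson's r = 0.12, Spearman's rho = 0.13), all on the same arrays. The 44 proteins of the cytosolic ribosome, read the same way, had 28 higher and 0 lower genes with a median of 0.41; quantile and cyclic loess scaling each gave 18 and 8, with medians of 0.14 and 0.12. The 77 nuclear genes of the respiratory chain and ATP synthase had 33 higher and 8 lower with a median of 0.24, but 20 and 26 (median -0.07) with quantile scaling and 11 and 38 (median -0.21) with cyclic loess. The differences between these groups of genes were not tested.

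Proteins with a bacterial counterpart and those particular to mitochondria were counted apart, on the deposited scale. Of 46 genes with a bacterial counterpart, 12 were higher and 6 lower, with a median of 0.08. Of 28 particular to mitochondria, 8 were higher and 4 lower, with a median of 0.08. Among all genes tested 25.3% were higher and 21.2% lower. The largest changes of the large subunit came from both kinds. Its largest fall, Mrpl50 (-1.03), is of the second kind and the next, Mrpl14 (-0.69), of the first. Its largest rise, Mrpl33 (1.07), is of the first kind, while the next, Mrpl51 (0.88) and Mrpl44 (0.86), are of the second. The difference between the kinds was not tested.

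Probe sets of 1 gene often disagreed. A probe set is a group of short probes read as 1 value, and 27 members had several above the filter; the differences of 1 gene's probe sets spanned a median of 1.024, and over 1 in 14 genes. In 9 of the 27 genes all probe sets had the same call, in 6 the brightest was called and a dimmer one was not, in 11 only a dimmer one was called, and in 1 the calls were opposite. Over all 111 probe sets of the members above the filter, 36 were higher and 16 lower (32.4% and 14.4%), where 26.8% and 23.8% of all 13576 probe sets were. With quantile normalization 31 were higher and 32 lower. Probe sets of 1 gene are not replicates of it, since they may read different transcripts.

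**Figure D4:**
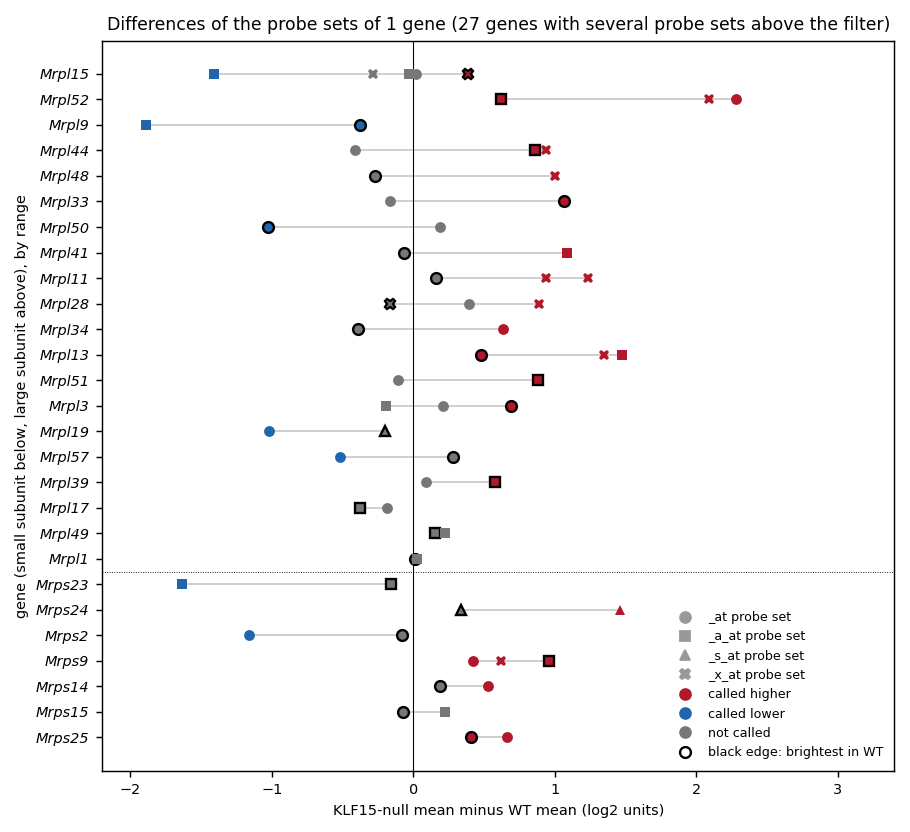
Differences between the KLF15-null and WT means (x axis, log2 units) of the probe sets of the 27 members with several above the filter, 1 gene per row, with the shape for the kind of probe set, the colour for its call on the deposited scale, and a black edge on the probe set used for the gene. Mrpl15 spans from -1.41 to 0.39 with calls both ways, and Mrpl52 reaches 2.28 on a dimmer probe set.

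Mrpl15 had probe sets called in opposite directions. Its brightest read 9.93, 10.12, 10.12 and 9.93 in WT and 10.25, 10.42 and 10.56 in KLF15-null hearts, a difference of 0.39 (limma adjusted p = 0.0201). Another read 9.38, 9.53, 9.55 and 9.33 against 8.56, 7.27 and 8.28, a difference of -1.41 (limma adjusted p = 0.00142). The fall held under all 4 scalings, from -1.51 to -1.32, and the rise was not called after quantile (adjusted p = 0.393) or cyclic loess normalization (0.276). A further 3 above the filter differed by -0.28, -0.03 and 0.02 and were not called. The direction of Mrpl15 thus depends on the probe set: the mean of its probe sets above the filter gave -0.26, and the brightest probe set that the array's naming marks as specific to the gene gave -0.03.

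In 11 genes the test passed on a dimmer probe set alone. Mrpl11, Mrpl28, Mrpl34, Mrpl41, Mrpl48, Mrps14 and Mrps24 were higher there, and Mrpl19, Mrpl57, Mrps2 and Mrps23 lower. The probe set of Mrpl34 had a WT mean of 5.68, under the filter level of 5.74, and groups that overlapped. Those of Mrpl19, Mrpl57 and Mrps2 had KLF15-null means of 5.50, 5.61 and 5.51, also under that level. These probe sets passed the filter through their brighter group alone. Mrpl41 differed by -0.07 on its brightest probe set (-0.32 and called lower after quantile normalization, adjusted p = 0.0265) but by 1.09 on the next, which read 9.36, 9.43, 9.62 and 9.25 in WT and 10.32, 10.62 and 10.55 in KLF15-null hearts (limma adjusted p = 9.82e-05). Mrps23 differed by -0.16 on the brightest (-0.34 and called after quantile normalization, adjusted p = 0.00473) and by -1.64 on the other, which read 8.38, 8.52, 8.62 and 8.36 against 7.40, 6.01 and 7.11 (limma adjusted p = 0.000827). In both genes the dimmer probe set had groups that did not overlap and kept its call and direction under all 4 scalings.

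Some genes moved much further on a dimmer probe set in the direction already called. The rise of Mrpl52, 0.62 where the signal was brightest, came to 2.28 on a probe set that read 7.19, 7.31, 7.59 and 7.27 in WT and 9.43, 9.79 and 9.64 in KLF15-null hearts (limma adjusted p = 2.00e-06). Mrpl9, narrowly called at -0.38, fell by 1.89 on its other probe set, from 7.98, 8.07, 8.03 and 7.94 to 6.47, 5.87 and 6.02 (limma adjusted p = 6.47e-06). Mrpl13 rose by 0.48, 1.48 and 1.35 on its 3 probe sets. Other genes had a further probe set that did not follow the one used for the gene. Those of Mrpl33, Mrpl50 and Mrpl51 were dim and not called, with differences of -0.16, 0.19 and -0.11. In 3 other genes that rose, a probe set less dim than these, but dimmer than the one used for the gene, was not called either. Mrpl44 differed there by -0.41 (WT mean 8.35, limma adjusted p = 0.079). Mrpl39 differed by 0.09 (WT mean 9.47, adjusted p = 0.65) and Mrpl3 by -0.19 (WT mean 7.47, adjusted p = 0.34). Another probe set of Mrpl44 did follow, with a difference of 0.94 (WT mean 9.38, limma adjusted p = 0.000344).

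The kind of probe set went with the direction. The array's naming marks probe sets that may bind transcripts of other genes with _x_at. Of the 11 such probe sets of the members, 9 were higher and 0 lower, with a median of 0.94, while over the whole array 60.5% of 1074 were higher and 7.91% lower, with a median of 0.53. Of the members' 64 plain _at probe sets, 15 were higher and 12 lower, with a median of 0.05, where 20.5% of 8772 on the whole array were higher and 25.01% lower, with a median of -0.03. Of their 30 _a_at probe sets, which may read several transcripts of 1 gene, 10 were higher and 3 lower, where 29.9% and 28.5% on the whole array were. Only 3 of the 30 called genes (Mrpl15, Mrpl38 and Mrps12) rested on an _x_at probe set or on an _s_at one, which several genes may share. The 11 had 8 higher and 2 lower after quantile or cyclic loess normalization, with medians of 0.70 and 0.73. Without either kind, an alternative chosen after seeing the data, 71 members remained, of which 18 were higher and 10 lower. Of those 10, 9 were also lower in the main fit, while Mrpl38 was left with a probe set under the filter.

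The other genes of mitochondrial translation, taken as lists of those found on the array, were also mixed. The array held 16 of 22 listed genes for ribosome assembly, 9 of 15 translation factors and 11 of 20 synthetase and amidotransferase genes. For copying and transcribing mitochondrial DNA it held 10 of 12. Across the series 25.3% of genes were called upward and 21.2% downward, and no list was tested against those shares. Of 4 mitochondrial ribosomal proteins whose symbols lack the Mrp prefix, 2 were higher, the GTP-binding protein Dap3 (difference 0.45, limma adjusted p = 0.0278) and Chchd1 (0.47, limma adjusted p = 0.026), and 2 were not called (Gadd45gip1 and Ptcd3). Neither of the 2 kept its call after quantile or cyclic loess normalization, with adjusted p from 0.0843 to 0.163. Of 16 genes for assembling the ribosome and modifying its RNA, 3 were higher and 3 lower, with a median of 0.06. The largest fall was that of Mettl17, a factor needed for assembly of the small subunit, from 8.20 to 6.80 (difference -1.40, limma adjusted p = 4.57e-05). Mtg2, a GTPase of large subunit assembly, fell by 1.14 (limma adjusted p = 2.05e-05) and Eral1, a chaperone of the small subunit RNA, fell by 0.9997 (limma adjusted p = 0.00163), while Fastkd2 rose by 1.12 (limma adjusted p = 0.000428).

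Of 9 translation factors and their partners 1 was higher and 3 were lower, with a median of -0.22. Gfm2, a factor that splits the ribosome after termination, read 8.003, 8.03, 8.03 and 7.83 in WT and 6.67, 6.53 and 6.59 in KLF15-null hearts (difference -1.37, limma adjusted p = 3.78e-06). Tufm, the elongation factor that delivers tRNA, fell by 1.01 (limma adjusted p = 0.00102), and Oxa1l, which inserts new proteins into the inner membrane, fell by 1.03 (limma adjusted p = 1.51e-05). Slirp, which stabilises mitochondrial messenger RNA, rose by 0.93 (limma adjusted p = 0.000416). In the first 3 genes every KLF15-null array lay below every WT array. Of 11 mitochondrial tRNA synthetase and amidotransferase genes, 3 were higher (Ears2, Gatb and Qrsl1, by 0.71, 0.70 and 0.81) and 3 lower, Sars2 by the most.

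Genes that copy and transcribe mitochondrial DNA, the source of the ribosomal RNAs, split likewise: of 10, 3 were higher and 4 lower. Ssbp1, which coats single-stranded mitochondrial DNA, rose by 1.42 (limma adjusted p = 2.69e-05) and Tfb2m, a transcription initiation factor, fell by 1.22 (limma adjusted p = 2.65e-05). Of 8 nuclear regulators tested, the coactivator Ppargc1a fell from 8.88, 9.36, 9.32 and 9.16 to 7.42, 7.15 and 7.58 (difference -1.80, limma adjusted p = 1.41e-05) and its relative Ppargc1b by 0.91 (limma adjusted p = 0.000985). Myc rose by 0.97 (limma adjusted p = 0.000345) and Yy1 by 0.37 (limma adjusted p = 0.0132), and Pprc1, another member of the coactivator family, was also higher (0.64, limma adjusted p = 0.0359). The factors Nrf1 and Gabpa differed by 0.14 and -0.08 and were not called. Esrra, at -0.31, was just short of the threshold (limma adjusted p = 0.0504) and was called lower after quantile (-0.34, adjusted p = 0.011) and cyclic loess normalization (-0.36, adjusted p = 0.00969). Gabpb1 read under the filter level.

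The promoters were examined because many genes of this family are known targets of NRF-1, ETS factors and YY1. RefSeq's table (GRCm38.p6, 250 bases before to 50 after each start) held 65 of the 74 members. Letters were searched on both strands: GCANGCGC (the NRF-1 core printed for Mrpl33), CCGGAAG (the ETS core printed for Mrps18a), AAGATGGC (YY1), CAAGGTCA (estrogen-related receptors) and CCCCNCCC (a GC box of Krüppel-like and Sp factors). The NRF-1 core was in 20 promoters (30.8%) against 9.87% of all 27025 promoters and 12.9% of the 17492 of protein-coding genes. The ETS core was in 23 (35.4%) against 9.12% and 11.9%, and the YY1 letters in 11 (16.9%) against 2.88% and 3.22%. The receptor letters were in 2 (3.08%) against 1.53% and 1.34%. The GC box was in 25 (38.5%) against 32.9% and 38.8%, so its share was no higher than among protein-coding genes. A match describes the letters in this window and is no evidence of binding.

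By call on the deposited scale, the NRF-1 core was in 10 of the 18 higher members with a promoter, 2 of the 8 lower and 8 of the 39 not called. For the ETS core the counts were 11 of 18, 1 of 8 and 11 of 39, the 1 lower gene being Mrps18a. The YY1 letters ran the other way, in 2 of 18, 3 of 8 and 6 of 39. The GC box of the family to which KLF15 belongs was in 6 of 18, 2 of 8 and 17 of 39, and the receptor letters were in 1 of 18, 0 of 8 and 1 of 39. These counts are small, and the differences between them were not tested. They also rest on calls that depend on the scaling. Of the higher members that lost their calls after quantile normalization, Mrpl39, Mrpl52 and Mrps21 hold the NRF-1 core. Mrpl2 and Mrps17, lost as well, hold neither it nor the ETS core. Quantile normalization also added 1 higher and 13 lower members, and the motifs were not counted again for those calls.

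Head-to-head starts were common in the family. Another gene started on the opposite strand within 1000 bases in 24 of 65 members (36.9%), against 12.2% of 17492 protein-coding genes in the same table. In 14 of the pairs both genes were tested, the pair of Mrps11 and Mrpl46 being counted from either side. On the deposited scale, where 25.3% of all genes were higher and 21.2% lower, both partners passed the threshold in the same direction in none of these. In 1 they passed in opposite directions (Mrps12 and Sars2), in 8 only 1 of them passed, and in 5 neither did. Such pairs outside the family were not counted. Beside the uncalled Mrpl18 and Mrpl32, the partners Tcp1, a subunit of a cytosolic chaperonin, and Psma2, a proteasome subunit, were higher by 0.53 and 0.45 (limma adjusted p = 0.00849 and 0.00459). Median centring kept both calls, cyclic loess normalization kept that of Tcp1 (adjusted p = 0.0394) but not of Psma2 (0.117), and quantile normalization kept neither (0.261 and 0.231). Ndufb5, the partner of Mrpl47, was not called on the deposited scale. It was lower after quantile and cyclic loess normalization (limma adjusted p = 0.00253 and 0.00158).

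Markers of the heart's cells were read beside these results. Of 8 cardiomyocyte genes 0 were higher and 1 was lower, Actn2 (difference -0.65, limma adjusted p = 0.00678), and their summed level was 16.50 to 16.70 in WT and 16.49 to 16.62 in KLF15-null hearts on the log2 scale. Median centring gave 3 higher and 1 lower of the 8, quantile normalization 0 and 3, and cyclic loess normalization 0 and 7. Of 4 neutrophil markers 2 were higher, S100a8 by 2.19 and S100a9 by 1.41, while Csf3r (-0.05) and Cxcr2 (-0.15) were not called and overlapped between the groups; the summed level of the 4 was 7.78 to 8.46 in WT and 9.17 to 9.49 in KLF15-null hearts. Macrophage markers had 3 of 8 higher and 2 lower, with summed levels of 11.37 to 12.15 and 12.10 to 12.60. Endothelial markers had 3 of 6 lower, with summed levels of 10.81 to 11.11 and 10.12 to 10.83, and fibroblast markers 1 of 7 higher and 2 lower, with 12.43 to 13.28 and 12.17 to 12.38. Smooth muscle and pericyte markers had 1 of 6 higher and 1 lower, with 12.69 to 13.25 and 13.33 to 13.51. No lymphocyte, adipocyte or skeletal muscle marker above the filter was called on the deposited scale. The part of these cells in the members' values was not tested.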

How the data were processed

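Heart RNA of WT mice (4 arrays) and KLF15-null mice (3 arrays) was measured on 1-colour Affymetrix arrays. The values used are the authors' deposited log2 signals per probe set, a scale read from the values; GCOS is named in the submitters' processing notes, without a version; how probes were summarized and arrays scaled is not given in the labels or files used. Symbols came from the platform's annotation: 20380 probe sets carry 1 symbol, 691 several and 1555 none, and all 74 member symbols were found in RefSeq. The 3 probe sets that list an Mrpl or Mrps symbol among several were left out.

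Probe sets with a mean over the 7 arrays at or above the 40th percentile (5.74) were tested with limma 3.58.1 (R 4.3.3; lmFit, eBayes with an intensity trend, two-sided), KLF15-null minus WT, with Benjamini-Hochberg adjustment over all 13576 and a threshold of 0.05. The script was tested on simulated data. The number of arrays limits the precision. Values of 28 of the 74 members (37.8%) were equal on 2 or more arrays, as were 35.6% of all tested probe sets, to every deposited decimal. Genes named are, per subunit, up to 8 rises and 8 falls past the threshold with groups apart, the brightest and dimmest in WT, those with opposite probe sets, those that lose a call with 1 array left out, and up to 4 per other list by smallest p; Mrpl43, Mrpl36, Mrpl12, Mrpl34, Mrpl17, Mrpl57, Mrps31, Mrps18c, the regulators below the first 4, and the probe sets and promoters described were chosen after their values were seen. The members and lists were chosen with earlier results of these data known. Pairing by replicate number was checked: deviations of same-numbered arrays correlated at -0.11, 0.00 and 0.19. Equal numbers were therefore not treated as pairs.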

Additional observations from a re-analysis of the deposited data

Results flagged for a closer look

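In 9 of the 75 WT groups of 4 arrays examined (74 members and Klf15), 1 array stood apart by Dixon's ratio. This ratio is the gap to the nearest neighbour divided by the group's range, and there it exceeded the 95% critical value. Chance alone flags about 1 in 20 groups of independent values without ties. That rate cannot be set against these groups, since they share the same 4 arrays and many hold equal values. The WT values of Mrps5 were all equal. WT array 3 was the highest with a ratio of 1 for Mrpl20, 0.847 for Mrpl16, 0.883 for Mrpl37 and 0.923 for Mrps23. WT array 2 was the highest for Mrpl10 (ratio 1) and the lowest for Mrpl32 (0.955) and Mrps30 (0.888). WT array 4 was the lowest for Mrpl46 (0.886) and Mrps35 (0.843). A ratio of 1 arises where the other 3 arrays hold the same deposited value, as for Mrpl20 on WT arrays 1, 2 and 4.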

How the results depend on the processing

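Large subunit lower genes numbered 8 in the main fit, 18 with quantile scaling, 18 with cyclic loess, 5 after median centring, and 5 with WT array 3 and KLF15-null array 2 both left out, an alternative chosen after seeing the data. Higher genes of that subunit numbered 22 with array weights and 21 without those 2 arrays, against 12. Over all probe sets tested, array weights gave 34.6% higher and 30.2% lower, and leaving out those 2 arrays 29.6% and 22.2%. The main fit gave 26.8% and 23.8% of all probe sets. Small subunit lower genes numbered 5 with quantile scaling, 4 with cyclic loess, 4 where each gene was the average of its probe sets, and 1 with Mrps18a and Mrps30 counted as large subunit, against 2; higher genes numbered 13 with array weights, against 8. The small subunit median was -0.0429 after quantile normalization. Mrpl15 reversed to -0.2649 as the average of its probe sets, to -0.0340 on its gene-specific probe set and to -0.0340 without _x_at and _s_at probe sets. With 1 array left out, large subunit counts ran from 9 to 18 higher and 5 to 12 lower. Small subunit counts then ran from 7 to 12 higher and 2 to 2 lower. Over all probe sets, 22.9% to 29% were higher and 20.3% to 25.3% lower in those fits. The large and small subunit medians ran from 0.03 to 0.09 and from 0.03 to 0.24. With the replicate number as a replicate block, which drops WT array 4, 5 large subunit genes were lower, as without that array and no block. The cause of these changes was not tested. Of the named members' values under all alternatives, 496 stayed on the same side of the threshold, 57 lost the threshold and 3 reversed. A change of sign in a value that was never called, as in some fits of Mrpl1, is counted among the 496. Median centring moved the median of all probe sets by 0.09, and the members by as much.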
